A study of Mus musculus with 4 samples.

Results

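The megabases of the mouse autosomes in which a tiling array carried few probes were examined for DNA methylation in the fetal liver. Each autosome of build mm9 was divided into bins of 1 Mb, and a bin was kept when it held 1 to 40 probes, which describes the array design and uses no measured value. Of 2098 autosomal bins with a probe, 312 (14.9%) met this rule. They held 7638 probes, of which 7635 were usable, or 1.92% of the usable autosomal probes. Probes lying close together were joined into regions of at least 3 probes, and the probe-poor megabases held 1035 of the 56653 regions of the array (1.83%). The regions held 7371 of the usable probes, the other 264 probes had too few neighbours, and 9 of the kept bins held no region. Whether these megabases are poor in genes was not checked, because the probes are named by position and no gene annotation of mm9 was used here. They are therefore called probe-poor megabases. No gene is named and no sequence is shown for the same reason.

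The study compared livers of C57BL/6J fetuses from dams whose daily chow was held to 50% of what the controls ate, between gestation days 10 and 17, with livers of fetuses from dams fed freely, all collected on gestation day 18. Each group was 1 pool of liver DNA, described as N = 6; whether these were fetuses or litters, and their sex, is not stated in the labels. The pools are called the food restricted and the control pool. Methylated DNA was immunoprecipitated from each pool and hybridised against total DNA of the same pool on 2 arrays with exchanged dyes, which are technical repeats of 1 sample. No p-value was therefore computed, the difference between the pools has no replicate check, and the value from each slide is given instead.

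In mammals methyl groups are placed mainly on cytosines followed by guanines (CpG sites). Most such sites outside CpG islands are methylated, whereas CpG islands at promoters are often free of methylation. Immunoprecipitation with enrichment measured on an array follows both the methylation and the CpG density of a fragment, so a low ratio in CpG-poor DNA does not mean that its cytosines lack methylation. The whole fetal liver is a mixture of hepatic cells and of blood-forming cells, for which it is a main site before birth.

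M stands for enrichment: the log2 of immunoprecipitated over reference signal, less the median of the array. The value of a region is the median over its probes. The difference D was taken within a slide, as the food restricted M less the control M. On both slides each pool kept its own array position, so position and pool cannot be told apart. In the deposited table of processed values, the columns of the food restricted pool on slide 1 and of the control pool on slide 2 hold each other's scanner values, equal within 0.001 at 100.0% of probes. The column of the food restricted pool on slide 1 correlated at r = -0.91 across probes with the scanner values of that array. The scanner files were used, since the direction of their ratios fits the labelled dyes, and the main values are also given for the other assignments below.

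The member regions resembled the other 53507 autosomal regions in size. They had a median of 7 probes (3 to 12) and a median length of 1329 bp (274 to 1991 bp), against 7 probes and 1325 bp elsewhere. The bins differed in their load, with a median of 23 probes and of 3 regions per bin, and at most 7 regions. Of the member regions, 1033 were identical to a region joined over the whole array and 2 were cut at the border of a bin. Probes of 60 bp made up 57.1% of the probes in the probe-poor megabases and 46.6% of the other autosomal probes, and the mean probe length was 56.2 bp against 55.1 bp.

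The probe-poor megabases were less enriched than the remaining autosomal regions in both pools. Their median M was -0.63 on slide 1 and -0.62 on slide 2 in the food restricted pool, and -0.80 and -0.72 in the control pool. Over the other autosomal regions it was -0.06 and -0.05 in the food restricted pool, and -0.04 and -0.06 in the control pool. All 4 arrays thus placed the members below the rest. The difference of the medians, taken on each array and averaged over the 4 arrays, was -0.64. The size of this gap depended on the background correction and scaling: it was -0.093 with a normexp correction and -0.17 with a loess fit within each array, and it kept its sign under all the settings tried. The normexp setting adds an offset of 50 to each channel, which narrows the ratios of dim probes by construction. Median background-subtracted immunoprecipitated signals of the members' probes were 34.6 and 24.8 in the food restricted pool and 20.5 and 16.0 in the control pool. Loess takes off the part of M that follows signal intensity. The share of these steps in the smaller gap was not tested.

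The spread of values was wide in both pools. The middle of the distribution, from the 25th to the 75th percentile of regions, reached from -1.17 to 0.27 on slide 1 and from -1.19 to 0.35 on slide 2 in the food restricted pool. In the control pool it reached from -1.45 to 0.27 and from -1.40 to 0.37. The plot of the distributions shows that the members lie at low values without forming a group of their own.

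**Figure D1:**
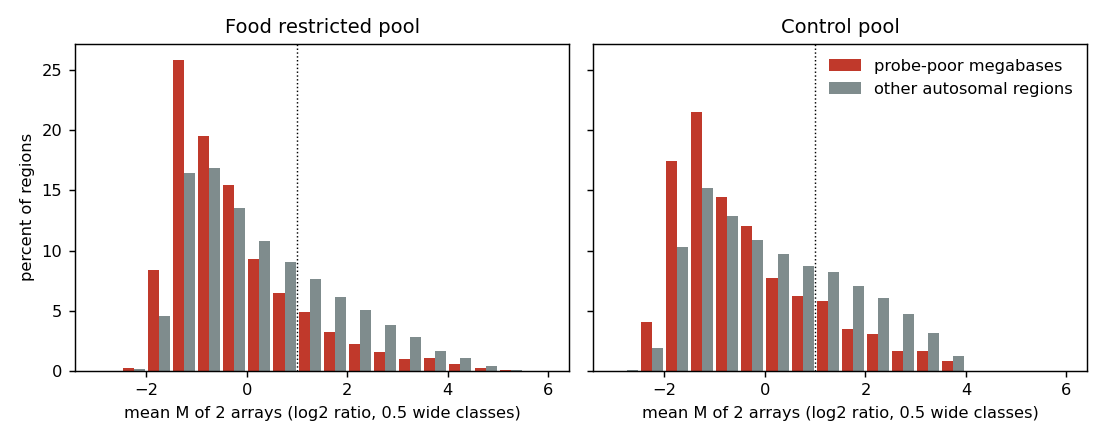
Percent of regions (vertical axis) by mean M of the 2 arrays of a pool (horizontal axis, log2 ratio in classes 0.5 wide) for the 1035 regions of probe-poor megabases (red) and the 53507 other autosomal regions (grey), in the food restricted pool (left) and the control pool (right). The dotted line marks an M of 1, which 14.8% of the members exceed in the food restricted pool and 16.4% in the control pool.

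Fewer of the members were strongly enriched. M was above 1, a doubling over the array median, at 153 members (14.8%, exact 95% binomial interval 12.7% to 17.1%, which covers counting error only) in the food restricted pool and at 170 (16.4%, 14.2% to 18.8%) in the control pool. The shares over all regions of the array were 27.8% in the food restricted pool and 29.7% in the control pool, and those over the other autosomal regions were 28.5% and 30.4%. Both members' shares lay below the background shares, which were outside the intervals. The intervals treat the regions as independent, although these share arrays and often a bin, so they do not test this difference. With a normexp correction the members' shares were 7.44% and 5.80%, against 15.2% and 12.1% of all regions. With centring on the densest value of each array they were 30.0% and 34.0%, against 47.1% and 50.9%. The level of the share moved with the scaling, and the members stayed below all regions in both.

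At the other end of the scale, M was below -1 at 34.5% of the members in the food restricted pool, where the share over all regions was 21.2%. In the control pool it was below -1 at 43.1% of the members, against 27.6% over all regions. Very strong enrichment, an M above 3, was found at 30 members (2.90%) in the food restricted pool and at 25 (2.42%) in the control pool, against 5.88% and 4.34% of the other autosomal regions. The probe-poor megabases thus held strongly enriched regions too, at a lower share.

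Both channels were dimmer in the probe-poor megabases, and the immunoprecipitated channel more so. Centred on each array's median, the log2 immunoprecipitated signal of the members had a median of -0.81 and -0.78 in the food restricted pool and of -0.92 and -0.85 in the control pool. The log2 reference signal had a median of -0.25 and -0.26 in the food restricted pool and of -0.27 and -0.30 in the control pool. Over the other autosomal regions the 8 medians of both channels lay between 0.04 and 0.06. Part of the lower immunoprecipitated signal was thus shared by the reference signal.

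Signal over background moved with the enrichment. Among the probes of the probe-poor megabases, 70.0% and 70.6% stood well above background in the immunoprecipitated channel in the food restricted pool, and 59.2% and 59.4% in the control pool. Elsewhere on the autosomes these shares were 81.1% and 81.9% in the food restricted pool, and 73.6% and 73.4% in the control pool. A region is called dim here in a pool in which fewer than 50% of its probes stood well above background on either array. Of the members, 175 (16.9%) were dim in the food restricted pool and 289 (27.9%) in the control pool, against 8.44% and 15.5% of the other autosomal regions. When every probe not well above background on all arrays was left out, which removes low ratios by construction, the difference from the other regions was -0.52 over 683 members. The members' shares above 1 were then 30.0% in the food restricted pool and 31.0% in the control pool, where those of all regions were 40.8% and 43.1%. The part of dim signal in the lower median was not tested.

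From 21 to 40 probes per bin upwards, median enrichment was higher in each class with more probes, and the classes above 200 probes lay close together. In the food restricted pool the median of the mean M over both arrays was -0.55 in bins with 1 to 20 probes, -0.65 with 21 to 40, -0.43 with 41 to 100, -0.17 with over 100 and up to 200, 0.01 with up to 400 and 0.03 with over 400 probes. In the control pool the same classes had -0.80, -0.73, -0.50, -0.19, 0.03 and 0.05. In the mean over both arrays of the food restricted pool, the class with 1 to 20 probes thus lay above the class with 21 to 40. The slides differed in this order, with medians of -0.67 and -0.63 on slide 1 and of -0.54 and -0.63 on slide 2. The share of regions above 1 did not follow the order at the low end in either pool. It was 18.4% and 20.8% in the food restricted pool and 20.3% and 21.7% in the control pool for bins with 1 to 20 probes, which held 212 regions. For bins with 21 to 40 probes, with 823 regions, it was 13.6% and 13.9% in the food restricted pool and 14.6% and 15.4% in the control pool. Just inside the limit, bins with 36 to 40 probes (275 regions) had a median of -0.50 in the food restricted pool and -0.52 in the control pool. Just outside it, bins with 41 to 45 probes (386 regions) had the lower medians of -0.66 and -0.73, against the order of the classes.

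**Figure D2:**
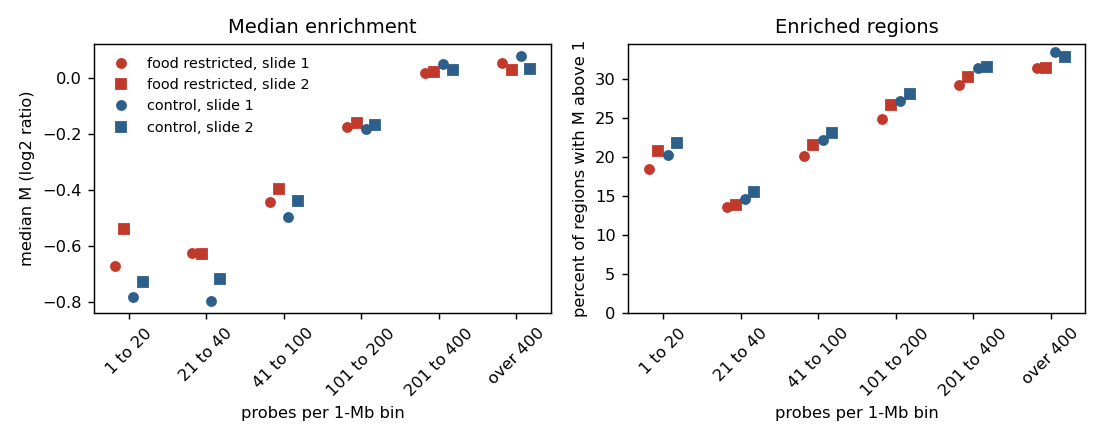
Median M (left, log2 ratio) and percent of regions with M above 1 (right) by the number of probes in the 1-Mb bin, with 1 point per array: food restricted pool in red, control pool in blue, slide 1 as circles and slide 2 as squares. All 4 arrays have their lowest medians in the classes with 1 to 40 probes, whereas the share above 1 is lowest with 21 to 40 probes.

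The lower enrichment was spread over the autosomes. The median of the members lay below that of the other regions of the same chromosome on 18 of 19 autosomes in the food restricted pool and on 19 of 19 in the control pool. The differences ranged from -1.14 to 0.02 in the food restricted pool and from -1.49 to -0.0030 in the control pool. Chromosome 15 had the widest gap, with a median M of -0.88 at 43 members in the food restricted pool and -1.16 in the control pool, against 0.26 and 0.33 at its other regions. Chromosome 9 was the exception in the food restricted pool, with -0.12 at 54 members and -0.15 at the other regions, and in the control pool it had -0.26 and -0.16. On chromosome 19 the 18 members had -0.31 in the food restricted pool and -0.03 in the control pool, and its other regions -0.03 in both.

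The gap between members and other regions differed with the length of the probes. In regions with a mean probe length under 50 bp (69 members), the median M was -0.99 in the food restricted pool and -1.41 in the control pool, against -0.06 and -0.18 in other regions of this class. For a mean length of 50 bp to under 55 bp (245 members) it was -0.84 and -1.07, against 0.07 and 0.06. For 55 bp to under 60 bp (588 members) it was -0.43 and -0.50, against -0.02 and 0.02. Where all probes had 60 bp (133 members) the members had -0.65 in the food restricted pool and -0.75 in the control pool, and the other regions -0.65 in both. The members therefore stood apart among regions with short probes, and hardly at all among regions of 60-bp probes. In the 60-bp class the centred log2 immunoprecipitated signal was low in both sets. It was -2.11 in the food restricted and -2.23 in the control pool for members, and -2.03 and -2.15 for other regions. Other regions with probes under 50 bp had 1.04 and 1.00. Whether the low signal limits the gap in the 60-bp class was not tested. These classes by length were compared under other settings after the data were seen. With the normexp correction the gap was -0.51 in the food restricted pool and -0.53 in the control pool for the shortest class and -0.0067 and -0.027 for the 60-bp class, and with loess it was -0.66 and -0.67 for the shortest class and -0.018 and 0.038 for the 60-bp class. The base composition of the probes was not measured here.

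Enriched and depleted regions lay side by side within the megabases. In the food restricted pool 54 of the 303 bins with a region held both a region below -1 and a region above 1, and in the control pool 77 did. At least 1 region above 1 was present in 114 bins in the food restricted pool and in 123 in the control pool, while no region above 0 was present in 118 and 115 bins. All regions were above 1 in 7 and 8 bins. No such counts were made for the other autosomal bins, so these counts describe the members only. Between neighbouring members of 1 unbroken chain of probes, the mean M over the 4 arrays differed by more than 2 in 73 of 450 pairs (16.2%), against 22.9% of the pairs elsewhere. Across genomic neighbours of a chain M correlated at r = 0.35 over these 450 pairs and at 0.36 elsewhere, as a description of pairs that share arrays and often a bin.

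The steepest steps, named after their values were seen, show how far neighbours could differ. On chromosome 12 the region from 97015056 to 97016557 (9 probes) had an M of -1.0 and -1.27 in the food restricted pool and of -1.08 and -0.88 in the control pool. Its neighbour from 97016672 to 97017994 (8 probes), 114 bp further on, had 3.69 and 3.77 in the food restricted pool and 3.53 and 3.25 in the control pool. The border itself is set by the joining of probes and is the same for every array. A second step on chromosome 12 ran the other way: the region from 107246758 to 107247671 had 4.08 and 3.94 in the food restricted pool and 3.62 and 3.50 in the control pool, and the region from 107247922 to 107249294 had -0.48 and -0.43 in the food restricted pool and -0.91 and -1.23 in the control pool.

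The 6 members with the highest mean M lay on 6 chromosomes, and all of their probes stood well above background in both pools. The highest was on chromosome 7 from 83010080 to 83011197 (8 probes), with 4.97 and 5.06 in the food restricted pool and 4.09 and 3.80 in the control pool. Next came chromosome 5 from 40005639 to 40006708 (7 probes), with 4.68 and 4.66 in the food restricted pool and 3.76 and 3.35 in the control pool. The region on chromosome 11 from 91437869 to 91439014 (8 probes) had 4.43 and 4.26 in the food restricted pool and 3.99 and 3.63 in the control pool. In each of these regions both arrays of the food restricted pool read above both arrays of the control pool. The same held for chromosome 16 from 76294034 to 76295481 (9 probes), with 4.18 and 4.92 against 3.54 and 3.67 in the control pool. Chromosome 19 from 61303836 to 61304828, a region of 6 probes that were the only probes of its bin, had 4.52 and 4.47 in the food restricted pool and 3.71 and 3.53 in the control pool. On chromosome 3 from 140873688 to 140875625 (8 probes) the values were 4.40 and 4.43 in the food restricted pool and 3.70 and 3.59 in the control pool.

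The 6 members with the lowest mean M were dimmer, and 3 of them were dim in at least 1 pool. Chromosome 3 from 45178886 to 45180423 (9 probes) was lowest, with -1.86 and -1.99 in the food restricted pool and -2.53 and -2.06 in the control pool, and it was dim in both. Chromosome 4 from 39393895 to 39394192 (3 probes), dim in both pools, had -1.77 and -2.52 in the food restricted pool and -1.81 and -2.19 in the control pool. Chromosome 7 from 32084493 to 32085102 (5 probes), dim in the control pool, had -1.53 and -1.73 in the food restricted pool and -2.79 and -1.98 in the control pool. The other 3 were not dim in either pool. Chromosome 8 from 130881368 to 130882857 (9 probes) had -1.62 and -1.73 in the food restricted pool and -2.22 and -2.44 in the control pool. Chromosome 1 from 42750558 to 42752054 (8 probes) had -1.69 and -1.87 in the food restricted pool and -2.36 and -2.02 in the control pool. Chromosome 18 from 51277651 to 51278498 (4 probes) had -1.49 and -2.00 in the food restricted pool and -1.95 and -2.48 in the control pool. The arrays of the pools overlapped in the regions on chromosomes 4 and 18 and not in the other 4.

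The most probes in a member were 12, which 8 members had, and 7 of these had an M below 0 on all 4 arrays. The exception, on chromosome 7 from 122944174 to 122945647, had 0.20 and 0.63 in the food restricted pool and 0.43 and 0.93 in the control pool. The 4 longest of the 8 were the ones named by rule. Chromosome 14 from 115488888 to 115490794 had -1.27 and -1.16 in the food restricted pool and -1.65 and -1.52 in the control pool, where it was dim. Chromosome 10 from 72116653 to 72118548 had -1.06 and -0.81 in the food restricted pool and -0.80 and -1.23 in the control pool, so the pools overlapped. Chromosome 1 from 142078959 to 142080841, dim in both pools, had -1.26 and -1.13 against -1.41 and -1.44 in the control pool. Chromosome 15 from 53733023 to 53734841 had -0.91 and -1.30 in the food restricted pool and -1.54 and -1.46 in the control pool. None of the 8 reached a D of 0.5 in size on both slides.

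Among bins with at least 3 regions, the highest median M was found on chromosome 12 from 107000001 to 108000000, whose 5 regions had a median of 2.82 and 3.02 in the food restricted pool and 2.79 and 2.49 in the control pool. It also held a low region, so its regions ranged from -0.45 to 4.01 in the food restricted pool and from -1.07 to 3.56 in the control pool. The next were chromosome 14 from 101000001 to 102000000, with 2.88 and 2.76 against 2.37 and 2.57 in the control pool, chromosome 3 from 119000001 to 120000000, with 2.28 and 2.30 against 2.17 and 2.14, and chromosome 12 from 7000001 to 8000000, with 2.05 and 2.20 against 2.41 and 2.30. Of these 4 bins, only the last had every region above 1, from 1.32 to 3.43 in the food restricted pool and from 1.46 to 3.20 in the control pool. None of the 4 bins held a region called in either direction.

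The lowest bins were low throughout. Chromosome 12 from 50000001 to 51000000 had a median of -1.45 and -1.67 in the food restricted pool and of -1.93 and -1.78 in the control pool. Chromosome 1 from 3000001 to 4000000 had -1.64 and -1.48 in the food restricted pool and -2.04 and -1.81 in the control pool. Chromosome 16 from 74000001 to 75000000 had -1.68 and -1.24 in the food restricted pool and -2.14 and -1.76 in the control pool. In these 3 bins and in the fourth, on chromosome 4 from 64000001 to 65000000 with -1.18 and -1.60 against -1.83 and -1.52 in the control pool, no region reached an M of 0 in either pool. Each of the 4 held at least 1 region called higher in the food restricted pool, and the bin on chromosome 16 held 2. These bins were picked by low M on the same arrays, and higher calls were frequent at low M in general. In the lowest of 10 equal classes of M, 13.5% of the members and 11.4% of the other autosomal regions were called higher, against 4.55% of all regions.

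Probe-poor bins seldom adjoined one another. They formed 264 runs, of which 223 were 1 bin long, and the longest run had 4 bins, on chromosome 3 from 15000001 to 19000000. Its 13 regions had a median M of -0.83 and -1.07 in the food restricted pool and of -1.07 and -1.08 in the control pool. They ranged from -1.80 to 2.53 in the food restricted pool and from -1.72 to 2.18 in the control pool, and 2 and 1 of them were above 1. Their median D was 0.07 and 0.08, and none was called.

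The comparison of the pools asked where restriction of the mother's food was accompanied by another methylation enrichment. Calls required a D of 0.5 or more in size (1.41-fold) in the same direction on slide 1 and slide 2. Of the 1035 members, 68 were called higher in the food restricted pool (6.57%, where 4.55% of all regions were called higher) and 4 lower (0.386%, where 0.643% of all regions were called lower). Another 13 (1.26%) passed the size with opposite signs on the slides, where 0.717% of all regions did. This last count covers both orders of the slides, so each direction was set against 6.5: the higher calls were 10.46 times that number and the lower calls 0.615 times. The lower calls were thus no more frequent than the disagreement between slides in the main setting, which depended on the scaling. Lower calls and opposite signs, before halving, numbered 9 and 14 after quantile normalization between arrays and 19 and 17 after centring on the densest value. In the immunoprecipitated channel alone they numbered 13 and 13, and with loess 3 and 11. Higher calls in the same order were 16, 26, 48 and 44. Among the other autosomal regions, in the main setting, the higher calls were 13.7 times the halved count and the lower calls 1.86 times, with 4.48% called higher and 0.609% lower.

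The slides agreed less on these regions than elsewhere. D of slide 1 and D of slide 2 correlated at r = 0.29 over the members and at 0.35 over the other autosomal regions, as a description across regions that share the same 4 arrays. Their middle ranges, from the 25th to the 75th percentile, were 0.52 and 0.50 wide over the members and 0.46 and 0.44 wide over the other regions. Members had a median D of 0.12 and 0.13 on the slides, and the others of 0.03 and 0.09. The medians differed by 0.086 on slide 1 and by 0.037 on slide 2, and the average difference was 0.061. This difference turned its sign with the normexp correction (-0.027) and with loess (-0.028).

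**Figure D3:**
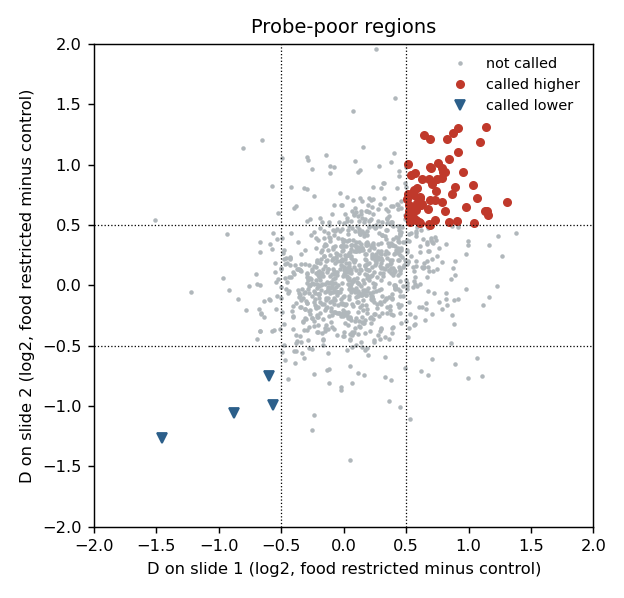
D on slide 1 (horizontal axis) and on slide 2 (vertical axis), both log2, food restricted minus control, with 1 point for each of the 1035 regions of probe-poor megabases; dotted lines mark a size of 0.5. The 68 regions called higher (red circles) lie near the limits, and the 4 called lower (blue triangles) stand alone in the opposite corner.

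The count of higher calls depended strongly on the processing. It was 18 with normexp, where 9 of the 68 regions were called again, and 44 with loess, where again 9 of the 68 were called. Under both settings the members' share was below that of all regions, with 1.74% against 2.72% for normexp and 4.25% against 8.52% for loess, so the order of the main setting, 6.57% against 4.55%, was turned. Means in place of medians over probes gave 45 higher calls, of which 27 were among the 68. Of the 72 calls, 94.4% were in the higher direction, and this split was 64.0% after quantile normalization between arrays (16 higher and 9 lower), 57.8% after centring on the densest value (26 and 19), 62.5% after the running median of D along M was taken off (15 and 9) and 78.7% in the immunoprecipitated channel alone (48 and 13). With only the pair of arrays whose value table columns match their own scanner files, D is food restricted on slide 2 less control on slide 1. It then crosses the slides and the dye orientations, with no second pair to agree, and 19.4% of the members and 14.7% of all regions passed the size in the higher direction, which was 79.4% of the members past it. With the pools as the value table columns assign them, 30 were higher and 15 lower. By the scanner files, that assignment puts an array of each pool into each group and keeps each group to a single dye orientation. Dye and pool thus cannot be told apart in it.

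The higher calls were most frequent in the lowest and the highest enrichment. When all 56653 regions were divided into 10 equal classes by mean M over the 4 arrays, 67.2% of the members fell into the 5 lowest classes, against 49.3% of the other autosomal regions. In the lowest class 13.5% of the members and 11.4% of the others were called higher. The shares were 8.92% against 8.45% in class 2, 8.09% against 5.36% in class 3, and 6.25% against 3.91% in class 4. Class 5 went the other way, with 1.79% against 1.96%, and class 6 had 2.22% against 0.751%. Each of these 2 classes held 2 members called higher. No member of classes 7 to 9 was called higher, nor more than 0.242% of the others in any of these classes. The 4 lower calls lay in classes 4, 6 and 7. In the highest class 8 of 47 members (17.0%) were called, against 12.3% of the others. If the other regions are weighted to the members' distribution over the classes, 5.25% of them were called higher, where the members had 6.57%. Since the classes were formed from the same arrays, these shares are a description.

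**Figure D4:**
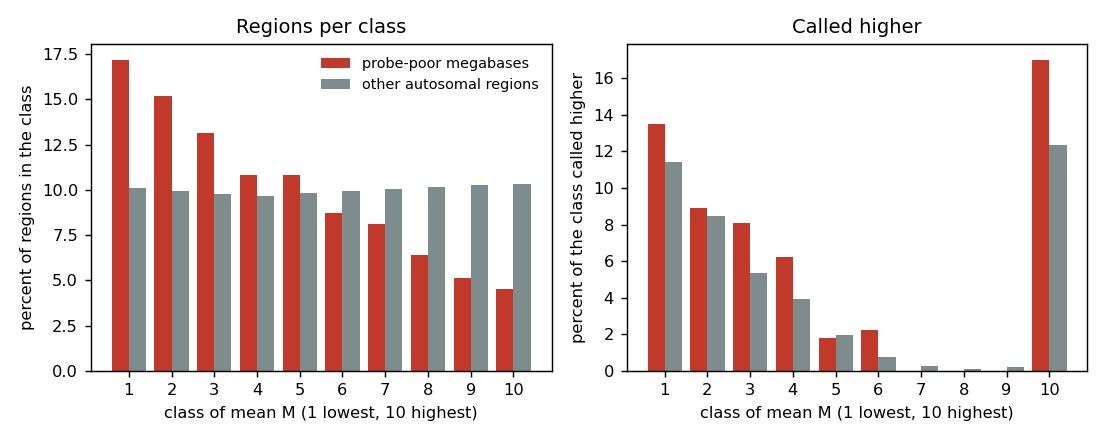
Percent of regions in each of 10 classes of mean M over the 4 arrays (left) and percent of the class called higher in the food restricted pool (right), for probe-poor megabases (red) and other autosomal regions (grey). The members are most frequent in class 1, and in both sets the higher calls lie in the lowest classes and in class 10.

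The 68 higher regions were spread over 61 bins and 19 chromosomes, with at most 2 in a bin. Their median D was 0.69 and 0.73, and the median fold was 1.67. The 58 regions of the 5 lowest classes had a median D of 0.69 and 0.71. In these the food restricted pool had the brighter centred immunoprecipitated signal, with median log2 differences of 0.54 and 0.42, and so was the reference signal, with 0.19 and 0.15. Of the 58, 19 were dim in the control pool, of which 6 were dim in the food restricted pool too, and 39 were dim in neither pool.

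The 8 regions of the highest class showed another pattern in the channels. Their median D was 0.74 and 0.97, yet the centred immunoprecipitated signal was lower in the food restricted pool at all 8 on both slides, with median log2 differences of -0.40 and -0.32. The reference signal was lower by more, with -0.83 and -0.89, so the higher ratio at these regions came with a lower signal in each channel. None of them was dim. The remaining 2 higher regions lay in classes 6 to 9.

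Higher calls made up a larger share of the members with few probes or short probes. Among members with 3 probes 13.1% were called higher (8 regions), and with 4 to 5 probes 11.2% (17 regions). With 6 to 8 probes it was 5.76% (32 regions), and with 9 or more 4.14% (11 regions). Elsewhere these shares were 6.59%, 4.84%, 4.38% and 3.91%. By mean probe length the members' shares were 20.3% under 50 bp (14 regions) and 11.8% from 50 bp to under 55 bp (29 regions). They were 3.91% from 55 bp to under 60 bp (23 regions) and 1.504% where all probes had 60 bp (2 regions). The other regions had 8.44%, 5.39%, 3.22% and 3.10% in these classes. The order was thus alike in both sets and steeper among the members.

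Of the 8 higher regions in which the smaller D of the slides was largest, the first, on chromosome 13 from 86187518 to 86188208, had -1.26 and -1.22 in the food restricted pool, against -2.40 and -2.53 in the control pool. It had 3 probes and was dim in both pools, so no fold is given, and its mean D turned to -0.14 with normexp, against 1.22 in the main setting. On chromosome 5 from 119011076 to 119011730 (4 probes) M was -1.02 and -0.90 in the food restricted pool, against -2.12 and -2.09 in the control pool, a 2.20-fold higher ratio, but its mean D was 0.048 with normexp. In the main setting the arrays of the pools did not overlap in either region, which the ranking by D on these arrays favours.

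Chromosome 13 from 44826126 to 44827021 (6 probes) had -0.30 and -0.76 in the food restricted pool, against -1.25 and -1.70 in the control pool (1.93-fold). Chromosome 2 from 50152035 to 50152958 (5 probes) had -0.36 and -0.64, against -1.28 and -1.74 in the control pool, where it was dim. The next pair were the most enriched members already described, on chromosome 5 from 40005639 (2.16-fold) and on chromosome 7 from 83010080 (2.10-fold). In the immunoprecipitated channel alone both of these turned their sign, with a mean difference of -0.42 and -0.38. Their mean D was 0.39 and 0.047 after quantile normalization and 0.37 and 0.27 with the running median taken off, so neither kept a mean of 0.5 there.

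Chromosome 7 from 37481864 to 37482961 (7 probes) had -1.22 and -1.55 in the food restricted pool, against -2.06 and -2.59 in the control pool (1.92-fold), and turned its sign with normexp (-0.040) and without dim probes (-0.22). The last, on chromosome 14 from 117324822 to 117325988 (6 probes), had -0.28 and -0.31 in the food restricted pool, against -1.31 and -1.14 in the control pool (1.91-fold). Both channels were brighter there in the food restricted pool, by 0.92 and 0.99 for the immunoprecipitated and by 0.49 and 0.47 for the reference signal. In all 8 regions the arrays of the pools did not overlap in the main setting. Ranking by D on the same arrays favours this, so it adds no support. With normexp, the regions on chromosomes 13 from 44826126, 2 and 14 also fell short, with a mean D of 0.19, 0.26 and 0.26. With loess these regions had 0.25, 0.36 and 0.32, and after quantile normalization 0.78, 0.84 and 0.81. Without dim immunoprecipitated probes the region on chromosome 13 had 0.38 and that on chromosome 14 had 0.79.

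All 4 regions called lower were dim in both pools, so their ratios rest on signals near background. Chromosome 5 from 83785802 to 83786670 (5 probes, none well above background) had -0.67 and 0.38 in the food restricted pool, against 0.78 and 1.64 in the control pool. There the food restricted pool had the brighter signal in both channels, by 0.37 and 0.23 for the immunoprecipitated and by 2.04 and 1.78 for the reference channel. Chromosome 3 from 74944106 to 74945769 (7 probes) had -0.07 and -0.47, against 0.81 and 0.58 in the control pool. The last 2 differed less. Chromosome 9 from 101155919 to 101157097 (6 probes) had -0.89 and -1.11, against -0.28 and -0.36 in the control pool, and chromosome 6 from 104515658 to 104516487 (6 probes) had -0.86 and -1.38, against -0.30 and -0.39 in the control pool. With normexp the mean D of these 4 was 0.0062, -0.062, -0.063 and -0.060, and with loess the first turned its sign too (0.23). The plot of the named regions shows the 4 arrays of each.

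**Figure D5:**
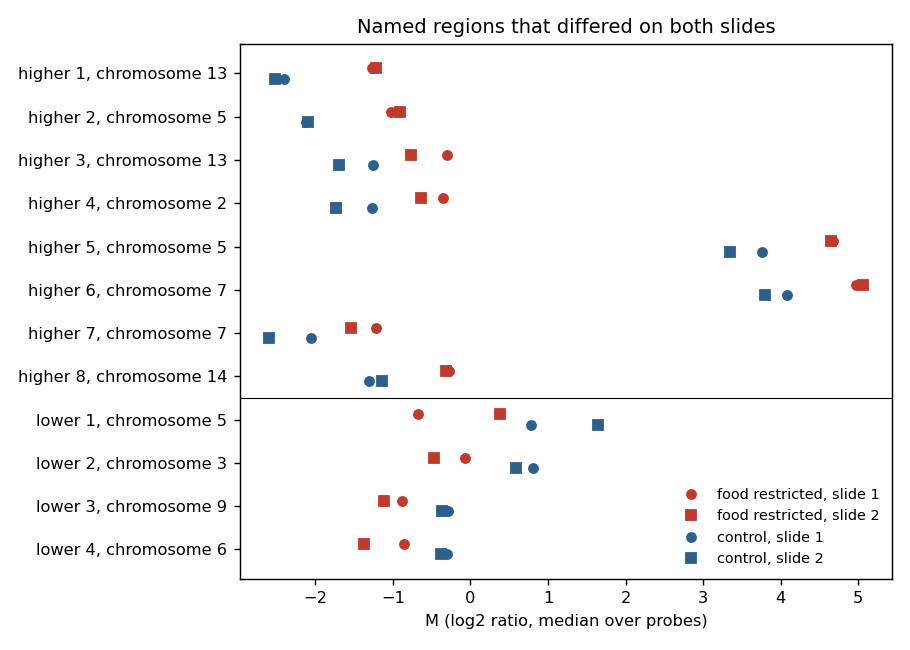
M (log2 ratio, median over probes) on each array for the 8 regions called higher with the largest smaller D and the 4 regions called lower, from top to bottom in the order of the text, with the food restricted pool in red and the control pool in blue, slide 1 as circles and slide 2 as squares. Of the regions called higher, 6 lie below 0 in both pools and 2 above 3.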

How the data were processed

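Agilent Feature Extraction 10.5.1.1 produced the scanner files of the 4 arrays, per the file headers and per the submitters' processing notes. The deposited processed intensity has local background subtracted and a dye factor applied within the array; positions are on mm9, per the file headers. The deposited value table holds log2 red over green ratios, not turned or centred. Of 415814 probes, 65 were left out for outlier flags.

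Probes whose starts lay at most 500 bp apart were chained, and chains were cut into the fewest equal pieces of up to 2000 bp. Members and lists were chosen with earlier results of these data known. Several readings of the joining rule and of a dim region were tried, and those that gave the counts of an earlier analysis of these data were kept. Named regions are the 8 called higher and up to 8 called lower by the smaller D, the 6 highest, the 6 lowest and the 4 with most probes; bins are the 4 highest, the 4 lowest and the longest run.

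No test was possible with 1 pool per group, and the number of arrays limits the precision. Alternatives used limma 3.58.1 (normexp, offset 50, on median spot signals), Python 3.11.15 and numpy 2.4.6. Mean spot signals were planned for normexp but were not available. Scripts were tested on simulated data.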

Additional observations from a re-analysis of the deposited data

How the results depend on the processing

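No sign of the difference in median M between the probe-poor and the other autosomal regions turned under any alternative run. It was -0.64 in the main setting, -0.093 with normexp, -0.17 with loess, -0.52 without dim immunoprecipitated probes and -0.74 with bins from 500 kb. The difference in median D, 0.061, turned to -0.027 with normexp and -0.028 with loess, and was 0.011 with quantile normalization, 0.0096 with the running median of D along M taken off, 0.12 in the immunoprecipitated channel alone, and 0.12 with only the arrays whose value table columns match their own files, a pair from different slides and dye orientations. That alternative, the pools of the value table columns and the joining from end to start were chosen after seeing the data.

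The shares above 1 in the food restricted and control pools were 7.44% and 5.80% with normexp, 30.0% and 34.0% with centring on the densest value, 30.0% and 31.0% without dim immunoprecipitated probes, 20.3% and 21.7% for bins with 1 to 20 probes, 21.3% and 22.6% above 0.5, and 9.86% and 10.6% above 1.5. With loess the control share was 12.5%.

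Counts of higher and lower calls, 68 and 4 in the main setting, were 18 and 0 with normexp, 44 and 3 with loess, 16 and 9 with quantile normalization, 97 and 2 without centring, 26 and 19 with centring on the densest value, 45 and 1 with means, 72 and 0 without dim reference and saturated probes, 35 and 1 without dim immunoprecipitated probes, 19 and 1 for bins with 1 to 20 probes, 119 and 7 for bins with 1 to 60, 70 and 8 with bins from 500 kb, 16 and 2 at a size of 0.75, 15 and 9 with the running median taken off, and 48 and 13 in the immunoprecipitated channel alone. They were 30 and 15 with the pools of the value table columns, where dye and pool cannot be told apart. With probes joined from end to start they were 57 and 7. With slide 1 or slide 2 left out, no second slide is needed to agree: there were 176 to 177 higher and 47 to 48 lower calls. The members' share of higher calls exceeded that of all regions in each setting run except normexp (1.74% against 2.72%) and loess (4.25% against 8.52%). The slide is the replicate block of D; across the slides, without the replicate block, there were 51 higher and 5 lower calls and 37 of opposite sign. Without centring the median D of all regions was 0.14 and 0.15, against 0.04 and 0.09.

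Of 122 values of named regions for D, 51 moved by less than the spread between slides, 63 by more and 8 turned: chromosome 13 from 86187518 (-0.14 with normexp), chromosome 7 from 37481864 (-0.040 with normexp, -0.22 without dim immunoprecipitated probes), chromosome 5 from 40005639 (-0.42) and chromosome 7 from 83010080 (-0.38), both in the immunoprecipitated channel alone, and chromosome 5 from 83785802 (0.0062 with normexp, 0.23 with loess, 0.30 in that channel alone). None of 104 values for M turned. The causes were not tested. The 2 arrays of a pool cover neither animals nor precipitation, and dim signal limits the low end of M.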
